A study of Mus musculus with 16 samples.

Results

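The comparison set crushed mouse retinas from animals given the DLK inhibitor GNE-3511 against crushed retinas from animals given vehicle. It took every library whose title carries the matching group name, which gave 5 inhibitor and 3 vehicle libraries, or 8 of the 16 libraries of the series. Of 36528 gene identifiers, 19391 had enough reads to be tested. In all 4 groups of the series the retina was collected 3 days after an optic nerve crush, either from a crushed or from an uncrushed eye. The inhibitor was given at 75 mg/kg, at 60 and again at 68 h after the injury, so the drug was present only towards the end of the 3 days. Vehicle was MCT, and both groups of crushed retinas carried the same lesion. The labels state 5 mice per drug, do not say which retinas came from the same animal, and give no strain, age or sex. Libraries were made from polyadenylated RNA of whole retina, so ganglion cells, the neurons whose axons are crushed, supply a small part of each library.

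An optic nerve crush cuts every passing axon, and the ganglion cells that own them, the output neurons of the eye, die in large part over the following weeks. Dual leucine zipper kinase (DLK, gene Map3k12) and its relative LZK (Map3k13) are kinases that sense axon damage and signal through the MAP kinase kinases MKK4 and MKK7 to JNK, which phosphorylates JUN and related AP-1 transcription factors. DLK signalling is known to drive both growth-associated and death-associated genes in injured neurons, and it also feeds into the integrated stress response, in which the kinase PERK and the transcription factor ATF4 raise genes of amino acid supply. Ganglion cells themselves are recognised by transcription factors such as BRN3A (Pou4f1), BRN3B (Pou4f2) and ISL2, which fall soon after axotomy.

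Total counts were 30255724, 35936207 and 25391530 in the crushed vehicle libraries and between 32696423 and 36818417 in the crushed inhibitor libraries. All 18 rod markers and all 26 ganglion cell markers listed were tested, and the summed rod markers were at 20100 to 24000 nRPKM (the authors' normalised level) in these 8 libraries, so the tissue was retina by its own markers. Crushed vehicle library 3 was the shallowest of the 8 and stood apart on the second principal component, at -34.3. Mitochondrial counts were 2.25% to 3.133% with vehicle and 2.021% to 2.552% with inhibitor. Their part in the results was not tested beyond a fit with this share as a covariate, which called 110 genes.

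With inhibitor, 98 genes differed between crushed retinas at a Benjamini-Hochberg adjusted p of 0.05 or less in edgeR's quasi-likelihood test (called genes below), which is 0.505% of the 19391 tested. Of these, 73 were lower (0.376%) and 25 were higher (0.129%). Changes were modest: the median size among called genes was 0.47 on the log2 scale, 54 genes moved by less than 0.5, and 14 genes passed 2-fold, 7 in each direction. The lowered genes at the top were Gm13889, Tcp11, Abca1, Sprr2g, Adcyap1 and Atf3, and the raised genes at the top were Isl2, Cmtr2 and Pou4f1. Protein-coding genes made up 88 of the 98, and 85.9% of all tested genes. In every one of the 98, the 5 inhibitor libraries and the 3 vehicle libraries did not overlap in normalised level. The calls were made on the same libraries, so this separation adds no support to them, here or for single genes below. Over all tested genes 4.68% lay wholly higher and 4.87% wholly lower with inhibitor. The set depended on single libraries: 22 genes were called without crushed vehicle library 1, 36 without library 2 and 25 without library 3. Called in each of the 8 fits that left out 1 crushed library were 11 genes, among them Gm13889, Tcp11, Abca1, Sprr2g, Adcyap1, Atf3, Cdk19, Isl2, Cmtr2 and Pbx3. None of the 98 changed direction in those 8 fits or in 10 other alternatives checked gene by gene.

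**Figure D1:**
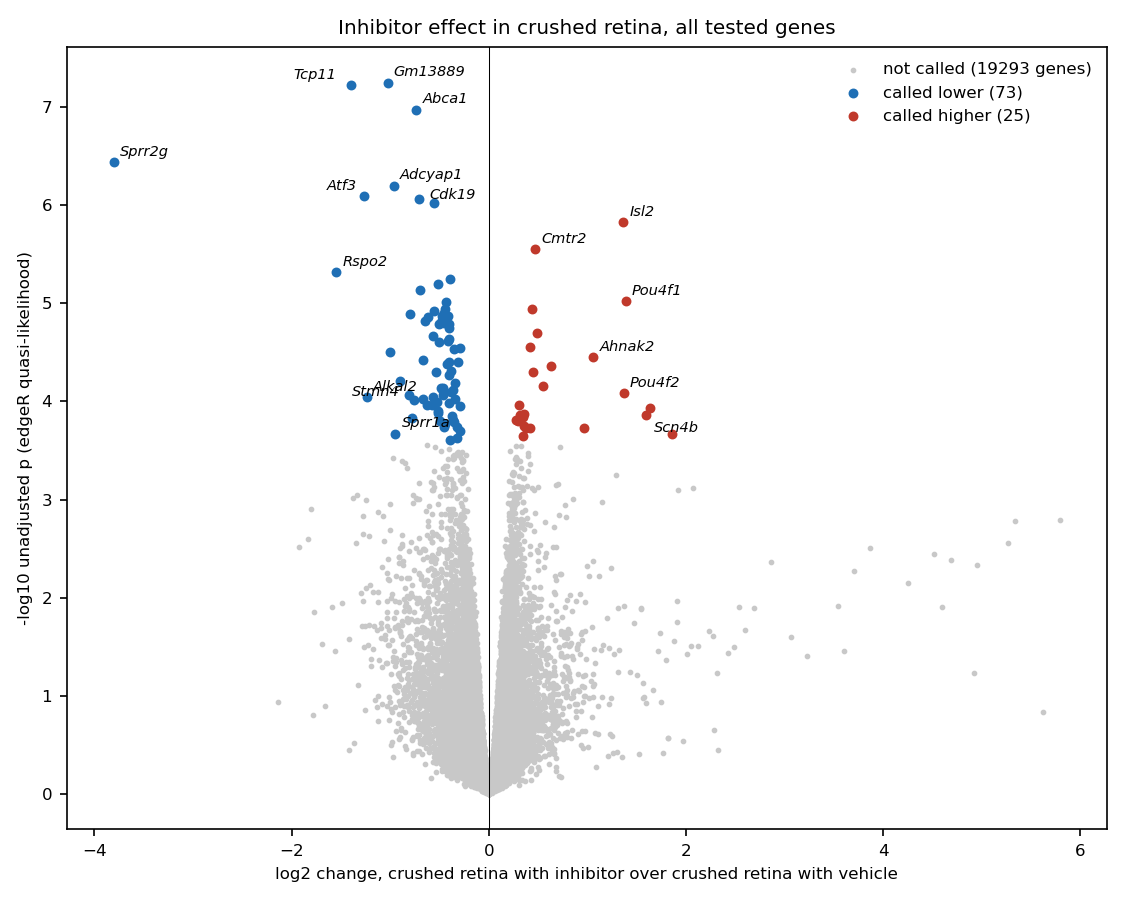
Each point is 1 of the 19391 tested genes, with the log2 change (crushed inhibitor over crushed vehicle) on the x axis and the unadjusted p on a −log10 scale on the y axis. The 73 genes called lower are blue and the 25 called higher are red, and most of both lie within 1 log2 unit of 0.

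The largest group of lowered genes came from the axon injury and regeneration list. Of its 38 tested members 7 were called lower and 0 higher, against 0.376% and 0.129% of all tested genes. The list's median change was -0.12 on the log2 scale against 0.008 over all tested genes. Wholly below the vehicle libraries lay 11 members, against 4.87% of all tested genes. The 7 were Gm13889, Adcyap1, Atf3, Tnfrsf12a, Alkal2, Stmn4 and Sprr1a. This list was drawn up with results of these libraries known, so its direction is not independent evidence. The call was also uneven in strength: 3 or 4 of the 7 were called without crushed vehicle library 1, 2 or 3, or without crushed inhibitor library 1 or 5.

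Atf3 encodes a stress-induced bZIP transcription factor that is among the first genes raised in axotomised neurons. Its normalised level (nRPKM, the authors' normalised reads per kilobase of gene, whose scaling is not stated in the labels) was 23.1, 21.6 and 20 in the crushed vehicle libraries and 12.4, 10.7, 5.72, 9.11 and 7.02 in the crushed inhibitor libraries. The groups did not overlap, and inhibitor libraries 3 and 5 were lowest. The log2 change was -1.26 ± 0.17 (SE, adjusted p = 0.00226), or 0.417 of the vehicle level. Atf3 stayed above uncrushed retina, where the group means were 3.15 ± 0.302 nRPKM with vehicle (SD, n = 3) and 2.23 ± 0.202 with inhibitor (SD, n = 5).

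Sprr1a, a small proline-rich protein known for its rise after axotomy, was found almost wholly in crushed eyes. It stood at 29.5, 21.2 and 23.9 nRPKM with vehicle and at 15.3, 18.5, 9.84, 9.5 and 11.1 with inhibitor after crush. In uncrushed retina the highest library was at 0.341. Inhibitor libraries 1 and 2 were nearest the vehicle range without entering it, and the change was -0.95 ± 0.20 (adjusted p = 0.0435). That call was lost in 7 of the 8 fits without 1 crushed library. The related Sprr2g, at a mean of only 0.286 CPM (counts scaled to library size) over the 8 libraries, was at 0.871, 1.19 and 0.662 nRPKM with vehicle and between 0 and 0.109 with inhibitor, a change of -3.80 ± 0.48 (adjusted p = 0.00175). Sprr2g belongs to a multigene family, so its reads may be shared with near copies.

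The promoters of Atf3 and Sprr1a are shown because, among the called injury genes that matched the promoter table, Atf3 held the stress element searched for and Sprr1a the AP-1 site, in 2 copies. Both come from the RefSeq promoter table on build GRCm38.p6 and are written 5′ to 3′ on the gene's own strand, with the matches in capitals. The Atf3 window is chr1:191183334-191183453, minus strand, ending 1 base before the transcript start, and its capitals mark a match to TGATGNAA, the C/EBP-ATF response element, read on the opposite strand. The Sprr1a window is chr3:92485918-92486037, minus strand, and its capitals mark matches to the AP-1 site TGANTCA at 146 and 116 bases before the start.
Atf3: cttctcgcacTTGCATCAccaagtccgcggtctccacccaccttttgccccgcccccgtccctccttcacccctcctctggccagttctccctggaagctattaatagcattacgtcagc
Sprr1a: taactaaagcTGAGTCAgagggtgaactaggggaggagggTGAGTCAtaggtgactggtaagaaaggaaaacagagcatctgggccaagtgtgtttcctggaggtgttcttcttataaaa
Searched on both strands over 250 bases before to 50 after each start, TGANTCA was in 8 of 79 promoters (10.1%) of the 56 lowered genes that matched the table, in 0 of 24 promoters of raised genes, and in 5.52% of promoters of all tested genes. TGATGNAA was in 1.27% of the lowered genes' promoters, that of Atf3 alone, against 2.51% among tested genes. A match describes the letters in the window and is not a measured binding site.

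Gm13889, a gene model at chr2:93955810-93957100, had the smallest p of all genes. It was at 64.9, 69.2 and 58.7 nRPKM with vehicle and at 34.4, 34.1, 26.8, 32.8 and 29.6 with inhibitor. The groups were well apart, and the change was -1.03 ± 0.11 (adjusted p = 0.000576). Adcyap1, which encodes the neuropeptide PACAP, was at 3.0, 2.49 and 2.55 nRPKM with vehicle and at 1.27, 1.74, 1.28, 1.37 and 1.19 with inhibitor. It fell by 0.97 ± 0.13 on the log2 scale (adjusted p = 0.00226), and inhibitor library 2 was the nearest to vehicle.

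Tnfrsf12a encodes FN14, the receptor for the cytokine TWEAK. It was at 22.2, 24.7 and 26.6 nRPKM with vehicle and at 15.7, 19.8, 9.63, 12.7 and 11.9 with inhibitor (change -0.81 ± 0.16, adjusted p = 0.0277). Stmn4, a neuronal stathmin that binds tubulin, was at 26.3, 35.3 and 24.0 nRPKM with vehicle and at 17.9, 19.3, 11.7, 18.5 and 17.1 with inhibitor (change -0.76 ± 0.15, adjusted p = 0.0287). In both genes the groups did not overlap and inhibitor library 3 was the lowest. Inhibitor libraries 1 and 2, the highest of their group for Atf3, Tnfrsf12a and Sprr1a, were also the highest in summed reactive gliosis genes, at 424 and 464 nRPKM against 279 to 299.9 in the other inhibitor libraries, and the part of this in the result was not tested. Alkal2, a ligand of the receptor tyrosine kinase ALK, was at 1.54, 0.886 and 1.1 nRPKM with vehicle and between 0.388 and 0.689 with inhibitor (change -1.24 ± 0.24, adjusted p = 0.0284). For Alkal2, 35.1% of its exon length overlaps another annotated gene, and the library kit does not mark strand, so part of its reads may belong to that neighbour.

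Many crush-associated genes of the same list did not pass the test. Ecel1, a membrane protease of injured neurons, was at 10.1 ± 3.21 nRPKM with vehicle (SD, n = 3) and 10.7 ± 1.61 with inhibitor (SD, n = 5), a change of 0.09 ± 0.17. Gap43, a growth cone protein, changed by -0.11 ± 0.11, and the neuropeptide Gal by 0.27 ± 0.24. Closest to the threshold were Sox11, a neuronal transcription factor, at -0.71 ± 0.18 (adjusted p = 0.0872), and the metalloprotease Mmp12 at -0.61 ± 0.16 (adjusted p = 0.095).

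**Figure D2:**
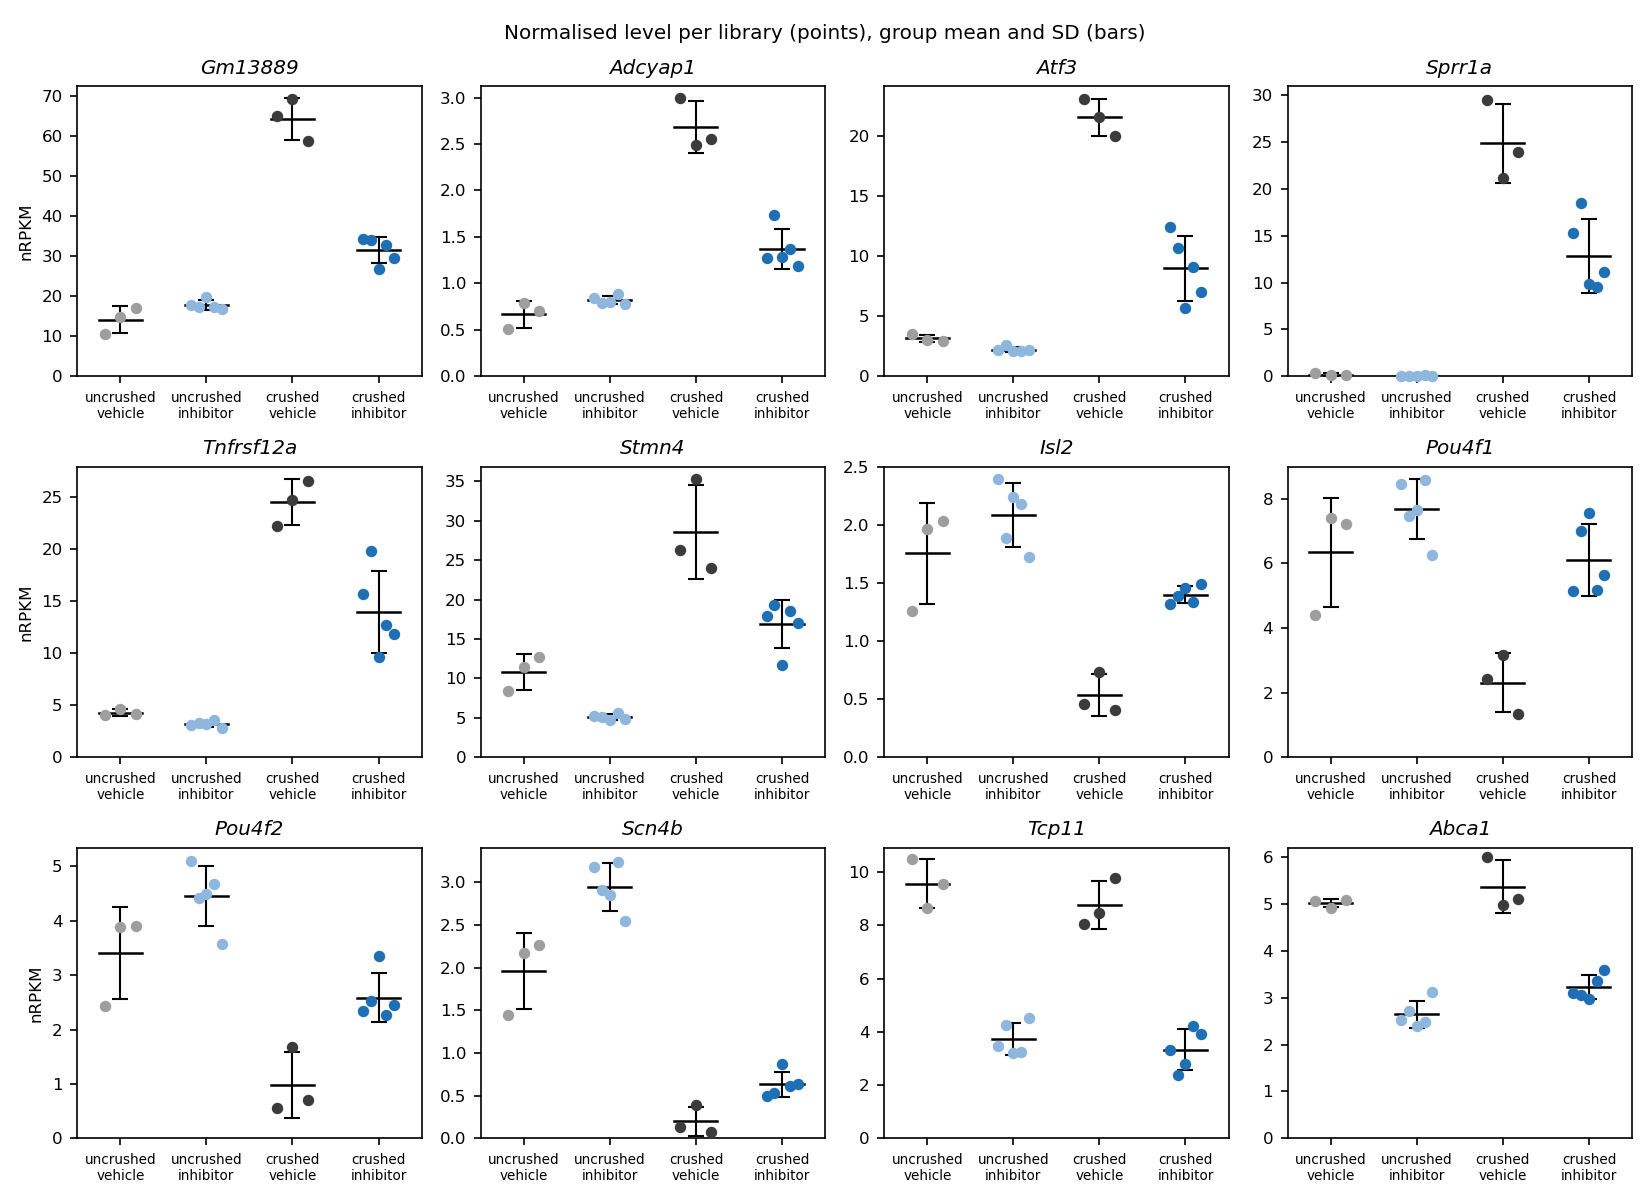
Points give the normalised level (nRPKM, linear axis from 0) of 12 genes in each library of the 4 groups, with bars for the group mean and SD (n = 3 for vehicle groups and n = 5 for inhibitor groups). In crushed retina the inhibitor libraries lie below the vehicle libraries for Gm13889, Adcyap1, Atf3, Sprr1a, Tnfrsf12a, Stmn4, Tcp11 and Abca1, and above them for Isl2, Pou4f1, Pou4f2 and Scn4b.

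Among raised genes, 4 were ganglion cell markers: the transcription factors Isl2, Pou4f1 and Pou4f2 and the sodium channel subunit Scn4b. They are 4 of 26 tested markers, none of which was called lower, where 0.129% of all tested genes were called higher. DESeq2 called 6 and voom 4, of 411 and 93 genes called in all. The median change of the list was 0.26, and 25 of 26 estimates were positive. Wholly above the vehicle libraries lay 8 markers, against 4.68% of all tested genes. In uncrushed retina 25 of the 26 estimates were also positive, with a median of 0.28 and 0 called. Markers of other neurons leaned the same way in crushed retina, with 13 of 15 bipolar cell markers (median 0.12) and 15 of 18 amacrine and horizontal cell markers (median 0.16) positive and 0 called in edgeR's test. The summed bipolar markers were at 486, 525 and 475 nRPKM with vehicle and 533 to 575 with inhibitor, which did not overlap. The positive estimates across the ganglion cell list are thus not shown to be particular to ganglion cells or to crushed retina, and the part of this wider lean in the 4 calls was not tested. The levels per library of the 3 called transcription factors, which are part of the ganglion cell list, follow.

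Isl2 was at 0.463, 0.739 and 0.404 nRPKM in crushed vehicle retinas and at 1.32, 1.39, 1.46, 1.34 and 1.49 with inhibitor. The inhibitor libraries were tightly grouped and all above the highest vehicle library, with a change of 1.37 ± 0.19 (adjusted p = 0.0032), or 2.58 times. Pou4f1 was at 2.42, 3.17 and 1.35 nRPKM with vehicle and at 5.15, 7.01, 7.56, 5.18 and 5.65 with inhibitor (change 1.39 ± 0.23, adjusted p = 0.0108). Its inhibitor range ran into that of uncrushed vehicle retina, which was 4.4, 7.39 and 7.23. Pou4f2 was at 0.556, 1.68 and 0.712 nRPKM with vehicle and at 2.34, 2.52, 3.36, 2.26 and 2.45 with inhibitor (change 1.37 ± 0.27, adjusted p = 0.0277). Vehicle library 2 was the highest of its group and library 3 or 1 the lowest for each of these genes.

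Scn4b, the beta 4 subunit of voltage-gated sodium channels, was low throughout crushed retina, at 0.127, 0.386 and 0.0781 nRPKM with vehicle and 0.494, 0.534, 0.867, 0.618 and 0.639 with inhibitor. The change was 1.59 ± 0.33 (adjusted p = 0.0349). Even with inhibitor it stood far under uncrushed vehicle retina, at 1.96 ± 0.445 nRPKM (SD, n = 3). Only Isl2 was called among the markers without crushed vehicle library 1, and 2 markers were called without vehicle library 3 or without inhibitor library 2, 3 or 5.

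Other ganglion cell markers moved less. Rbpms, an RNA-binding protein of all ganglion cells, was at 2.55 ± 0.627 nRPKM with vehicle (SD, n = 3) and 4.21 ± 0.463 with inhibitor (SD, n = 5), with a change of 0.72 ± 0.16 that missed the threshold (adjusted p = 0.0553). Its paralog Rbpms2 changed by 0.26 ± 0.16, the neurofilament genes Nefh by 0.36 ± 0.15 and Nefl by 0.01 ± 0.12, the synuclein Sncg by 0.24 ± 0.15 and the nicotinic receptor subunit Chrna6 by 0.40 ± 0.16. None of these passed. Summed over the 26 markers, the level was 449, 494 and 363 nRPKM in crushed vehicle libraries and 463 to 547 with inhibitor, so the groups overlapped. In these bulk libraries fewer ganglion cells and less RNA per ganglion cell cannot be told apart. Vehicle library 3, the lowest, was also lowest in the summed amacrine and horizontal cell markers, at 338 nRPKM against 428 and 465 in the other vehicle libraries and 446 to 491 with inhibitor. The part of that library's make-up in the marker result was not tested. Without vehicle library 3 the Pou4f1 and Isl2 calls remained, and the Pou4f2 and Scn4b calls were lost.

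**Figure D3:**
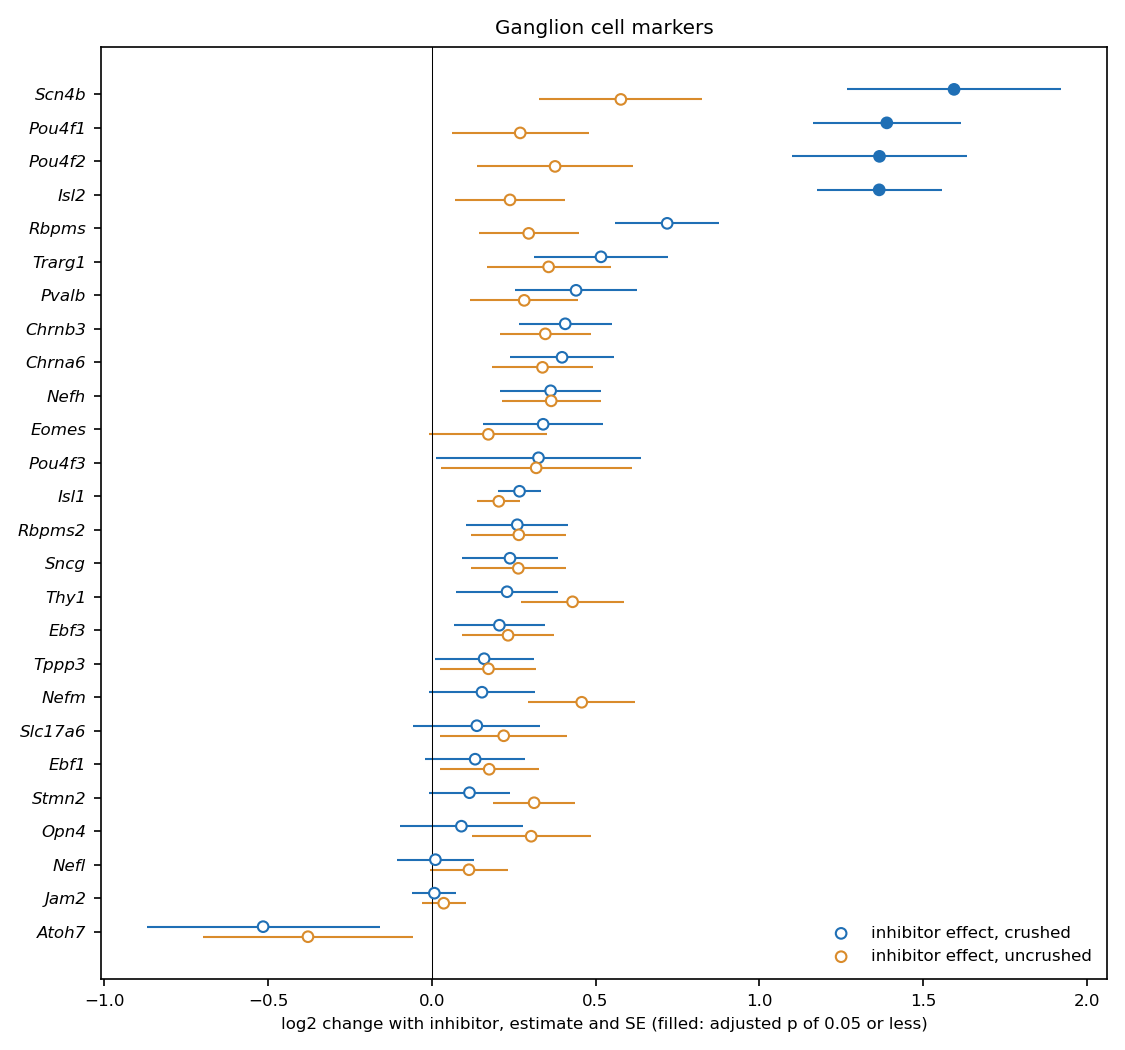
Each row is a ganglion cell marker, with the log2 change on inhibitor (points) and its SE (lines) in crushed retina (blue) and uncrushed retina (orange), filled where the adjusted p was 0.05 or less. Scn4b, Pou4f1, Pou4f2 and Isl2 stand apart in crushed retina between 1.37 and 1.59, and no marker was called in uncrushed retina.

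The Isl2 promoter is shown because it holds a perfect match to the cAMP response element TGACGTCA close to the start. The window is chr9:55541029-55541148 on the plus strand of GRCm38.p6, from RefSeq, and ends 1 base before the start; the capitals mark the match, which begins 11 bases before the start.
Isl2: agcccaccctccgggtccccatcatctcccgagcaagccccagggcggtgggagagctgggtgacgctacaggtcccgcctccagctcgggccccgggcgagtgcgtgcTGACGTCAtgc
This element was in 3 of 24 promoters (12.5%) of raised genes, those of Isl2, Mrpl49 and Ranbp6, in 4 of 79 (5.06%) of lowered genes, and in 2.65% of promoters of tested genes. With 24 promoters, 3 matches are few and are given as a description.

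No RNA of the drug's target or its cascade was called. Map3k12 itself was at 36.9, 39.2 and 43.7 nRPKM with vehicle and 37.3 to 40.2 with inhibitor, a change of -0.02 ± 0.07 (adjusted p = 0.924). Map3k13 changed by 0.06 ± 0.09 (adjusted p = 0.809). In the DLK-JNK cascade list 0 of 16 genes were called in edgeR's test, with changes from -0.24 to 0.20. At an unadjusted p under 0.05 there were 3, against 2665 of all 19391 tested genes. DESeq2 and voom called 0 of the 16. Map2k7, the gene of MKK7, was the lowest of them at -0.24 ± 0.09 (adjusted p = 0.266). Since the inhibitor acts on the enzyme, these levels do not measure its effect on the kinase.

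Downstream of JNK, Jund was the one member called among 22 AP-1 and immediate early genes, against 0.505% of all tested genes. It encodes an AP-1 subunit and was at 48.8, 53.9 and 44.5 nRPKM with vehicle and at 36.6, 36.3, 31.7, 36.5 and 30.0 with inhibitor, a change of -0.52 ± 0.11 (adjusted p = 0.0342). The groups did not overlap, and 52.6% of its exon length is shared with another gene model. The Jund call was lost in 7 of the 8 fits without 1 crushed library. Jun, the classic JNK substrate whose gene is also a JNK target, was at 21.6 ± 2.96 nRPKM with vehicle (SD, n = 3) and 17.0 ± 3.02 with inhibitor (SD, n = 5). Its change of -0.35 ± 0.14 did not pass (adjusted p = 0.291), whereas in uncrushed retina it fell by 0.69 ± 0.15 (adjusted p = 0.0402). The test of that difference gave 0.34 ± 0.21 with an unadjusted p of 0.12, so the Jun responses of the eyes were not shown to differ.

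Phosphatases that inactivate MAP kinases followed the same direction in 8 of 10 tested genes. Called lower were 2 of the 10, against 0.376% of all tested genes. Dusp8, a JNK and p38 phosphatase of neurons, was at 43.0, 40.5 and 37.1 nRPKM with vehicle and 30.7 to 33.1 with inhibitor (change -0.32 ± 0.07, adjusted p = 0.0477). Dusp14 was at 7.1, 7.18 and 6.86 with vehicle and 5.27 to 6.06 with inhibitor (change -0.32 ± 0.07, adjusted p = 0.0393). Both sets of libraries were separate, yet neither gene was called without crushed vehicle library 1, 2 or 3.

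Death-associated genes were lowered in part, with 2 of 25 genes of the BCL2 and pro-apoptotic list called. Both were lower, against 0.376% of all tested genes, and the list median was -0.04. Bcl2l11, which encodes the BH3-only killer BIM, was at 3.84, 3.36 and 3.75 nRPKM with vehicle and 2.07 to 2.85 with inhibitor (change -0.51 ± 0.10, adjusted p = 0.0333). Its groups did not overlap, but the call was lost in 7 of the 8 fits without 1 crushed library. The BH3-only genes Hrk and Bbc3 (PUMA) changed by -0.39 ± 0.11 and -0.31 ± 0.14, neither past the threshold, and the survival gene Bcl2 by 0.22 ± 0.09.

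Cdkn1a encodes p21, the cell cycle inhibitor and p53 target. It was at 8.69, 8.41 and 7.62 nRPKM with vehicle and at 5.28, 6.14, 4.95, 4.65 and 4.85 with inhibitor, with no overlap and a change of -0.67 ± 0.13 (adjusted p = 0.0287). The call was lost in 7 of the 8 fits without 1 crushed library. Cdkn1a was the 1 of 15 p53 targets called lower, against 0.376% of all tested genes. Among the rest, Trp53inp1 changed by -0.32 ± 0.07 (adjusted p = 0.0595) and Mdm2, the negative regulator of p53, by 0.05 ± 0.05. The median of the p53 list was 0.09, and in uncrushed retina 1 of the 15 was called lower, where 0.366% of all tested genes were.

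The integrated stress response divided into Atf3, which fell, and other regulators that did not pass. Of 24 regulators 1 was called, against 0.505% of all tested genes, and the median was 0.04. Atf4, its central transcription factor, was at 124 ± 9.77 nRPKM with vehicle (SD, n = 3) and 146 ± 10.5 with inhibitor (SD, n = 5), a change of 0.24 ± 0.08 (adjusted p = 0.21). Ddit3 (CHOP) changed by -0.11 ± 0.08, Trib3 by 0.07 ± 0.12, and Eif2ak3, the gene of PERK, by -0.26 ± 0.07 (adjusted p = 0.129). Chac1, a glutathione-degrading enzyme and ATF4 target, was at 8.51, 10.8 and 8.24 nRPKM with vehicle and 6.26 to 8.22 with inhibitor, a change of -0.32 ± 0.16 (adjusted p = 0.386). In uncrushed retina Chac1 rose by 1.07 ± 0.18 (adjusted p = 0.0145), and the difference between eyes was -1.39 ± 0.24, which did not pass (adjusted p = 0.139).

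Cytosolic aminoacyl-tRNA synthetases, which load amino acids onto tRNAs, gave 1 call of 20, upward, where 0.129% of all tested genes were called higher. Of the 20, 17 had positive estimates, and the median was 0.16. Wholly above the vehicle libraries lay 9, against 4.68% of all tested genes. Mars1, the methionyl enzyme, was the one called, at 26.6, 24.3 and 25.5 nRPKM with vehicle and 32.8, 29.6, 32.6, 30.0 and 32.0 with inhibitor (change 0.30 ± 0.06, adjusted p = 0.0365). Yars changed by 0.40 ± 0.09 (adjusted p = 0.0596), Iars by 0.23 ± 0.06 (adjusted p = 0.0926) and Nars by 0.27 ± 0.08 (adjusted p = 0.149). In uncrushed retina 9 of the 20 were called higher, where 0.263% of all tested genes were, with a median of 0.28. The calls moved with the settings: DESeq2 called 5 in crushed retina, of 411 genes in all. In edgeR's test 0 synthetases were called without any one of the 3 crushed vehicle libraries. In uncrushed retina the higher calls over all tested genes, 51 in number, fell to 4 without uncrushed vehicle library 1. Without uncrushed vehicle library 2 they fell to 3, and with the 8 uncrushed libraries alone to 0. The synthetases among them were not counted in these fits.

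Amino acid synthesis and transport genes gave 1 call of 24, downward, where 0.376% of all tested genes were called lower. Slc1a5, the glutamine transporter ASCT2, was at 4.26, 4.32 and 4.44 nRPKM with vehicle and at 3.01, 2.52, 2.91, 3.41 and 3.14 with inhibitor (change -0.53 ± 0.10, adjusted p = 0.0202). Aldh18a1 and Mthfd2, enzymes of proline synthesis and of mitochondrial folate metabolism, changed by 0.33 ± 0.09 and 0.35 ± 0.11 without passing. Slc1a5 fell about equally in uncrushed retina, by 0.57 ± 0.10 (adjusted p = 0.0158).

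A large share of the crushed-retina calls was also present without injury. In uncrushed retina 122 genes were called (0.629%), 71 lower (0.366%) and 51 higher (0.263%), and 48 were called in both eyes, which is 49.0% of the crushed calls and 39.3% of the uncrushed calls. All 48 had the same direction, 39 lower and 9 higher. Of the 98 crushed calls, 95 had the same sign in uncrushed retina, the exceptions being Gm13889, Adcyap1 and Alkal2. The 2 contrasts share no library, but eyes of one animal may be among both, and the labels do not tell.

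Tcp11, a gene best known from sperm, had a change of -1.39 ± 0.15 after crush (adjusted p = 0.000576) and -1.36 ± 0.15 without crush (adjusted p = 0.000734). It was at 8.04, 8.46 and 9.76 nRPKM in crushed vehicle retinas and at 3.32, 2.39, 2.79, 4.23 and 3.93 with inhibitor, much as in uncrushed retina. Abca1, the cholesterol efflux transporter, was at 6.01, 4.97 and 5.11 nRPKM with vehicle after crush and at 3.11, 3.05, 2.98, 3.35 and 3.6 with inhibitor. It changed by -0.74 ± 0.08 after crush (adjusted p = 0.00068) and -0.92 ± 0.09 without.

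Cdk19, a kinase of the Mediator complex, was at 24.3, 22.1 and 24.4 nRPKM with vehicle after crush and at 14.4, 12.5, 13.4, 16.1 and 15.7 with inhibitor. Its changes were -0.71 ± 0.10 after crush and -0.72 ± 0.10 without. Rspo2, a secreted enhancer of WNT signalling, was low at 0.284 to 0.365 nRPKM with vehicle and 0.0823 to 0.132 with inhibitor after crush, with changes of -1.55 ± 0.24 and -1.67 ± 0.22. In all 4 genes the crushed groups did not overlap. Stmn4 belongs here too, with an uncrushed change of -1.09 ± 0.16.

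**Figure D4:**
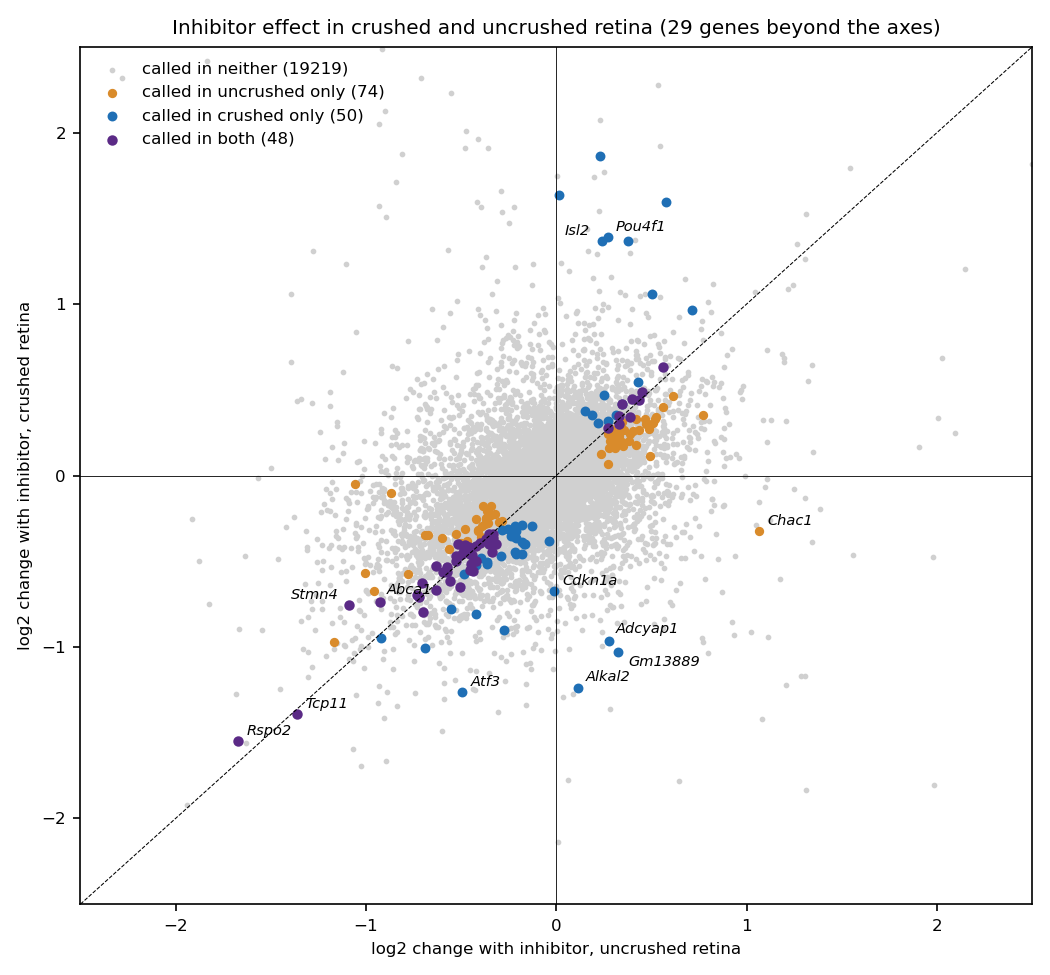
The log2 change on inhibitor in uncrushed retina (x axis) is plotted against that in crushed retina (y axis) for each tested gene, with equality dashed and 29 genes beyond the axes. The 48 genes called in both eyes (purple) lie near the dashed line, while Gm13889, Adcyap1 and Alkal2 lie below 0 after crush and above 0 without.

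A direct test of the difference between the inhibitor effects called 2 genes of 19391 (0.0103%), both lower after crush. Gm13889 was at 10.5, 14.8 and 17.1 nRPKM in uncrushed vehicle retinas and 16.9 to 19.9 with inhibitor, a change of 0.33 ± 0.12 (adjusted p = 0.197). Its difference was -1.35 ± 0.17 (adjusted p = 0.00551). Adcyap1 was at 0.509, 0.786 and 0.703 nRPKM in uncrushed vehicle retinas and 0.778 to 0.885 with inhibitor, with a difference of -1.24 ± 0.19 (adjusted p = 0.0454). Both genes were lower with inhibitor after crush and had positive estimates without it. The Gm13889 difference was called in all 16 fits that left out 1 library (highest adjusted p 0.0367), whereas that of Adcyap1 was lost in 14 of them (highest adjusted p 0.263, with the difference between -1.38 and -1.10).

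The ganglion cell transcription factors gave differences with small p that did not survive adjustment over all genes in the fit by group alone. Isl2 changed by 0.24 ± 0.17 without crush, a difference of 1.13 ± 0.25 (unadjusted p = 0.00032). For Pou4f1 the difference was 1.12 ± 0.30 and for Pou4f2 0.99 ± 0.35. Atf3 changed by -0.49 ± 0.19 without crush, a difference of -0.77 ± 0.26. In all, 17 of the 98 genes had an unadjusted p under 0.05 for the difference, Gm13889 and Adcyap1 among them. Apart from those 2, that fit did not show the inhibitor effect to differ between eyes for any of the 98. An edgeR fit with a block by consecutive title numbers, added after seeing the data, also called Pou4f1 (adjusted p = 0.0226). In voom with that block Pou4f1 did not pass (adjusted p = 0.165).

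Crush itself moved many of these genes, and its values share the crushed vehicle libraries with the drug comparison, so they are set side by side only. In vehicle retinas 510 genes were called between crushed and uncrushed eyes (2.63%), 343 higher (1.77%) and 167 lower (0.861%), among them 18 of 38 axon injury genes higher and 14 of 26 ganglion cell markers lower. With vehicle, crush changed Sprr1a by 7.25, Atf3 by 2.78, Tnfrsf12a by 2.51, Gm13889 by 2.18 and Adcyap1 by 1.99 on the log2 scale, where inhibitor changed them by -0.95, -1.26, -0.81, -1.03 and -0.97. For Isl2, Pou4f1, Pou4f2 and Scn4b crush gave -1.70, -1.45, -1.77 and -3.24, where inhibitor gave 1.37, 1.39, 1.37 and 1.59. Crush gave estimates near 0 for Tcp11 (-0.13 ± 0.17) and Abca1 (0.10 ± 0.10), neither called.

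Further genes with large changes fell into no single list. Ahnak2, of the giant AHNAK proteins, was at 0.962, 1.36 and 0.759 nRPKM with vehicle and 1.93 to 2.44 with inhibitor (change 1.06 ± 0.19, adjusted p = 0.0172). Cfi, the complement factor I protease, was at 0.588, 0.676 and 0.702 nRPKM with vehicle and 1.52, 1.65, 1.0, 1.13 and 1.09 with inhibitor (change 0.96 ± 0.20, adjusted p = 0.0393). Cmtr2, an enzyme of the mRNA cap, was at 3.04, 3.02 and 3.02 with vehicle and 3.84 to 4.57 with inhibitor (change 0.47 ± 0.07, adjusted p = 0.00545). All 3 were higher in each inhibitor library than in any vehicle library.

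On the lower side, Ncmap, a myelin-associated membrane protein, changed by -0.90 ± 0.17, Mlf1 by -0.80 and the ethanolamine kinase gene Etnk2 by -0.78. Smaller raised genes were Ak4, a mitochondrial adenylate kinase, at 0.63, Exo5, a DNA exonuclease, at 0.55, and the zinc finger genes Zbtb6 at 0.45 and Zfp830 at 0.44. Irx1, an Iroquois transcription factor under 1 CPM, was at 0.0413, 0.159 and 0.0643 nRPKM with vehicle and 0.188 to 0.412 with inhibitor (change 1.86 ± 0.40, adjusted p = 0.0435). The lowest inhibitor library of Irx1 lay just above the highest vehicle library.

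Glial and immune gene lists gave no call in edgeR's test. Among reactive gliosis, microglial and interferon-stimulated genes 0 had an unadjusted p under 0.05, where 2665 of all 19391 tested genes had. DESeq2 and voom called 0 in these 3 lists. Reactive gliosis, a list in which crush with vehicle called 16 of 25 genes higher, had 22 negative estimates with inhibitor, a median of -0.11 and a smallest adjusted p of 0.377. Its summed level was 387, 383 and 358 nRPKM with vehicle and 424, 464, 299.9, 283 and 279 with inhibitor, so inhibitor libraries 1 and 2 lay above every vehicle library and libraries 3 to 5 below. Microglial markers were also highest in inhibitor libraries 1 and 2, at 92.7 to 112 nRPKM with vehicle and at 135, 124, 80.7, 99 and 73.2 with inhibitor. Interferon-stimulated genes had 25 of 31 positive estimates, and their sum was 241, 264 and 183 nRPKM with vehicle and 282, 261, 187, 399 and 166 with inhibitor. For all 3 lists the inhibitor libraries spanned the whole range of the vehicle libraries.

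Markers of other cells were also tested for calls. Rod, cone, bipolar, amacrine and horizontal, Müller glial, endothelial, pigment epithelial, lens, muscle, myelin and blood markers gave 0 calls each in edgeR and voom. DESeq2 called 411 genes in all. Among them were 4 of 15 bipolar cell markers and 2 of 18 rod markers. It also called 1 of 12 cone markers and 1 of 18 amacrine and horizontal cell markers. At an unadjusted p under 0.05 in edgeR's test were 6, 3, 2 and 2 of these lists, against 2665 of all 19391 tested genes. For the remaining cell types DESeq2 called 0, and 1 myelin marker alone had an unadjusted p under 0.05. Lens markers had the highest median of any list, 0.91, with 15 of 16 estimates positive, and their summed level was 1.41, 2.98 and 20.9 nRPKM with vehicle and 15, 10, 22.2, 3.12 and 28.7 with inhibitor. These ranges overlapped, and no lens marker was at 0 in all libraries of either group. Pigment epithelium and choroid markers summed to 99, 124 and 162 nRPKM with vehicle and 81.2 to 121 with inhibitor, again overlapping, with 11 of 12 estimates negative. The part of lens or pigment epithelium tissue in the called genes was not tested. Nuclear genes of oxidative phosphorylation were positive in 28 of 28, with a median of 0.14, and 0 were called by edgeR (smallest adjusted p = 0.147). At an unadjusted p under 0.05 there were 7, and DESeq2 called 2, against the same 2665 and 411 over all genes.

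**Figure D5:**
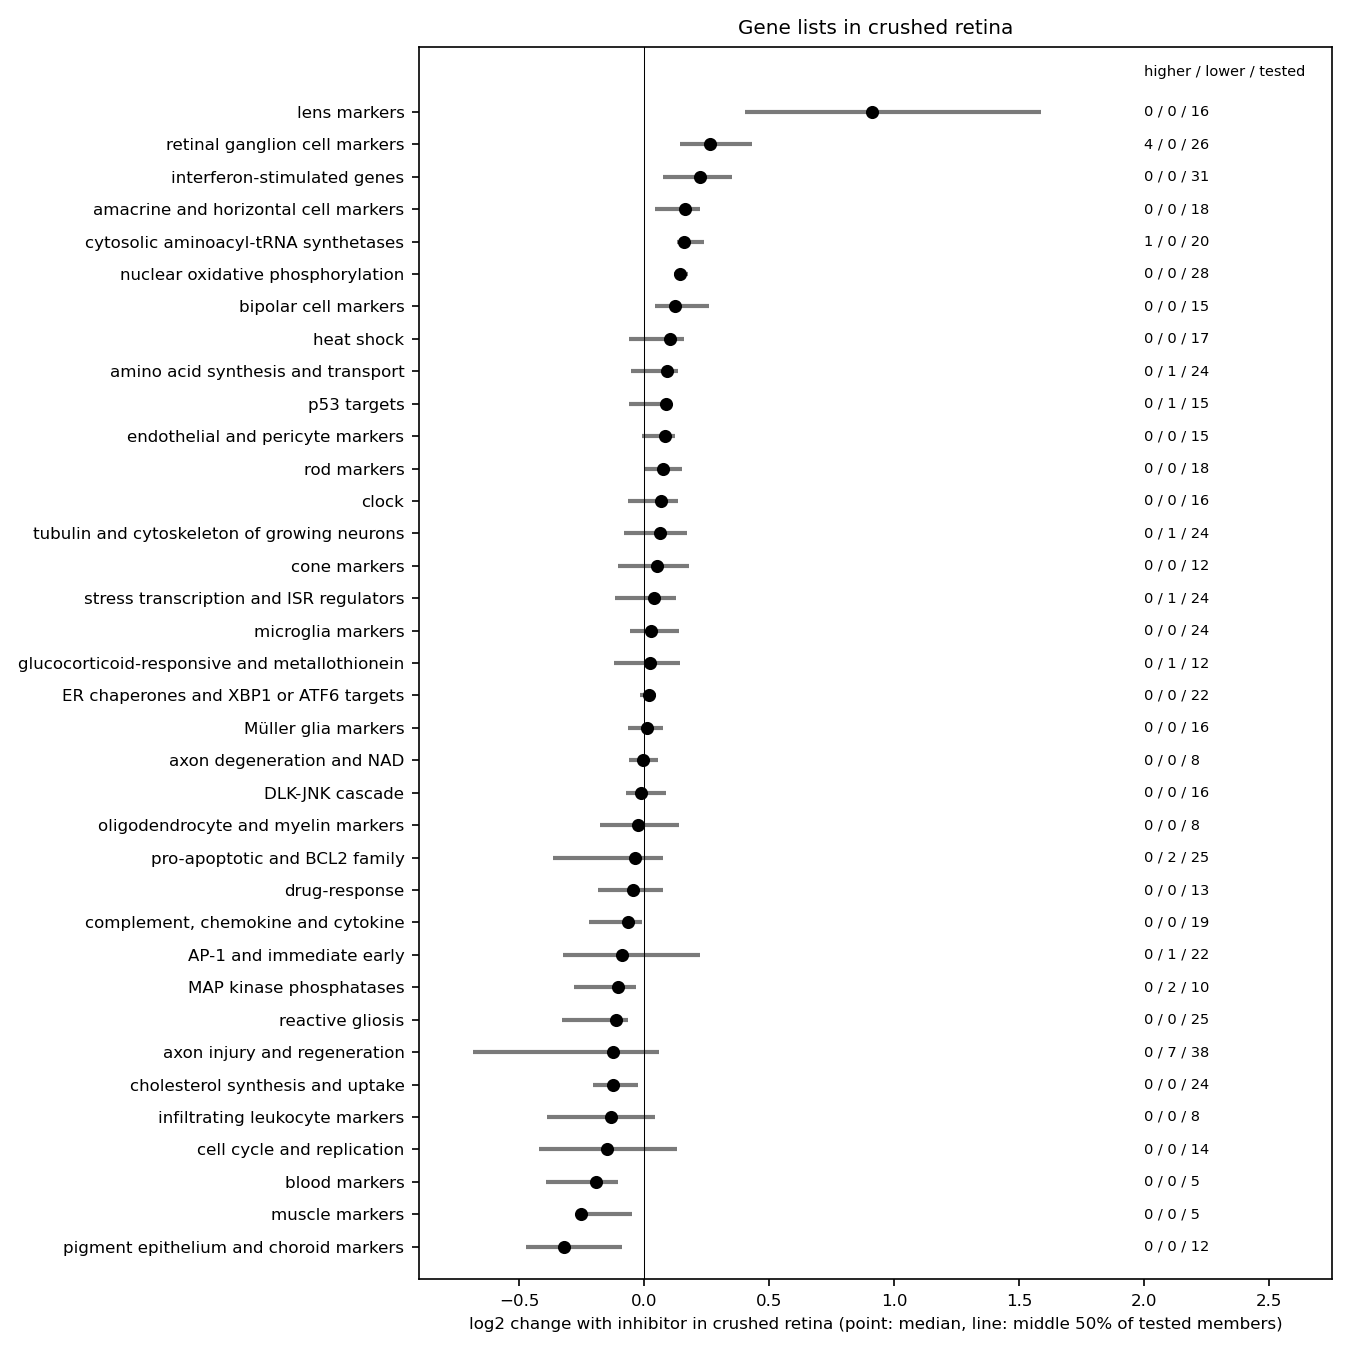
For each of the 36 gene lists the point is the median log2 change with inhibitor in crushed retina and the line spans the middle 50% of its tested members, with counts called higher, lower and tested at the right. The ganglion cell list (4 higher) and the axon injury list (7 lower) hold the most calls, and the lens list has the highest median with no call.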

How the data were processed

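RNA-seq of polyadenylated RNA from whole mouse retina was deposited as 1 table per library, with a read count and a normalised RPKM (nRPKM) per Entrez gene. Per the submitters' processing notes, reads were aligned with GSNAP to GRCm38. Per the labels' protocols, libraries were made with the TruSeq RNA Sample Preparation Kit v2 and read as 50 base pair single ends, and neither the counting rules nor the scaling of nRPKM is stated in the labels. The counts were deposited by the authors and were used as they stand for tests, and the authors' RPKM values were used only to show levels. Symbols were taken from a RefSeq table of GRCm38.p6 for 31049 of 36528 identifiers, and identifiers without a symbol held 1.098% to 1.216% of counts.

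Counts were fitted with edgeR 4.0.16 in R 4.3.3 (TMM factors, filterByExpr, quasi-likelihood F test, 1 coefficient per group, all 16 libraries, 12 residual degrees of freedom), and p-values were adjusted by Benjamini-Hochberg over the 19391 genes kept. Genes with an adjusted p of 0.05 or less are termed called. SE is the size of the log2 change divided by the root of F. Libraries of a group differed by more than sampling noise (chi-square per degree of freedom of at least 6.73), so each was counted as 1 replicate. The labels do not name animals, so a p-value here reflects only the spread between these libraries, which may be technical in part. Alternatives were RLE and upper quartile factors, DESeq2 1.42.0, limma 3.58.1 (voom), other filters, the 8 crushed libraries alone, and leaving out each library; fits with a mitochondrial covariate, without 2 libraries that stood apart, and with a block by consecutive title numbers were added after seeing the data. The fit was tested on simulated data.

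The comparison and the 36 gene lists (659 genes) were chosen with earlier results of these data known. Named by rule were Map3k12 and Map3k13, the 12 largest increases and decreases of at least 1 CPM (counts scaled to library size), up to 4 called members of each list or 2 with the smallest p where none was called, and the 5 genes with the smallest p in the difference and in both eyes. Other genes without a call were named after their values were seen, as context for their list, as were Sprr2g, Irx1, Rspo2 and Pbx3. Overlap of exons was taken from GENCODE, in which 92 of the 98 called genes were found.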

Additional observations from a re-analysis of the deposited data

Results flagged for a closer look

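Among 89 genes named by rule, 5 had a crushed inhibitor library far from the other 4, by a gap over 0.71 of the group's range (Dixon's 95% value). Called genes outside the naming rule were not screened. Chance flags about 1 in 20 groups. Pou4f2 was at 3.36 nRPKM in library 3 and at 2.26 to 2.52 in the others, and Stmn4 was at 11.7 in library 3 and at 17.1 to 19.3 in the others. Library 2 was high for Stbd1, at 3.17 nRPKM against 2.35 to 2.53, for the antioxidant gene Srxn1, at 50.8 against 39.5 to 41.6, and for Nes, the intermediate filament nestin, at 4.05 against 1.66 to 2.18.

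The inhibitor effect differed between crushed and uncrushed retina for 2 genes in edgeR's test of the difference: Gm13889, at -1.35 on the log2 scale, and Adcyap1, at -1.24.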

How the results depend on the processing

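Against 98 genes called in crushed retina, RLE factors gave 96, upper quartile factors 100, limma voom 93, no filter 86 and a mean of at least 1 CPM 120. DESeq2 called 411 (43.6% of them higher, against 25.5%), of which 96 were among the 98, and the 8 crushed libraries alone gave 45. Leaving out 1 library gave 22 to 144. In uncrushed retina, where 122 were called, DESeq2 gave 623, the 8 uncrushed libraries alone 3, and leaving out 1 library 17 to 205; with upper quartile factors 27.3% of its calls were higher, against 41.8%. For the difference, with 2 genes called, DESeq2 gave 5, voom 1 and leaving out 1 library 1 to 2, with Adcyap1 lost. Added after seeing the data, a fit without the 2 vehicle libraries apart on the second principal component called 53 genes in crushed retina, 11 in uncrushed retina and 1 for the difference, and the mitochondrial share as covariate gave 29 in uncrushed retina. The cause was not tested. Without crushed vehicle library 1, 77 of the 98 calls were lost, without library 2 68 and without library 3 73; those fits have 2 vehicle libraries.

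The titles carry no replicate numbers, but their sample numbers run consecutively over 8 pairs of a crushed and an uncrushed library of one drug, and the labels do not say whether a pair shares an animal. Deviations from the group means correlated by 0.0448 to 0.438 within these pairs (median 0.242, against -0.0213 for other crushed and uncrushed libraries of one drug), and 14 of 16 libraries correlated best with their own number, a hint from the data and not from the design. With these numbers as a replicate block, added after seeing the data, edgeR called 3 genes for the difference: Gm13889, Adcyap1 and Pou4f1 (difference 1.14 ± 0.15, adjusted p = 0.0226; 0.165 in voom). Voom with a within-pair correlation of 0.402 called 116 genes in crushed retina, 91 of them among the 98, 136 in uncrushed retina and 2 for the difference.

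Of the 98 called genes, 31 reached 1.5-fold and 4 were under 1 CPM, where few reads stand behind each value.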
